A study of Mus musculus with 12 samples.

Results

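The BCL2 family genes that set the balance between survival and mitochondrial cell death were followed in mouse erythroid cells that received an activator of a GATA1 fusion protein, active SREBP2, both or neither. The 10 members were chosen by symbol among the 17210 genes of the count table: the survival genes Bcl2, Bcl2l1 and Mcl1, the BH3-only genes Bcl2l11, Bbc3, Pmaip1, Bid and Bad, and the pore-forming effectors Bax and Bak1. The rule used only the symbols, although earlier results of these data were known when the members were chosen. RNA-seq was run on G1E-ER4 cells, an erythroid line without endogenous GATA1 (C57BL/6J embryonic stem cells in the labels) with a stable transgene in which the coding region of GATA1 is joined to the part of the human estrogen receptor that binds its hormone. In these cells β-estradiol (EST) switches the fusion protein on. RNA counts do not show whether the fusion protein was inactive in SREBP2 cells without EST, so the groups are named by treatment only. By immunoblot the study found the fusion protein in the nucleus when SREBP2 was overexpressed without EST. All 4 groups received retrovirus for 24 h, either the empty vector or one coding for the active form of SREBP2 (amino acids 1 to 468), and were then given vehicle or EST for 6 h. For the dose of EST the protocol of the samples gives 500 nM and the text of the series 200 nM. The groups were Vector (empty retrovirus, vehicle), SREBP2 (active SREBP2, vehicle), Vector+EST (empty retrovirus, EST) and SREBP2+EST (active SREBP2, EST), with 3 libraries each. All 4 groups therefore share the GATA1 fusion, the retroviral transduction and 1 cell line, and the labels do not say whether the 3 libraries of a group came from separate cultures. The study calls its experiments independent without tying this to single libraries, so each p-value measures the spread between these libraries, which may be technical.

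BCL2, BCL-xL (from Bcl2l1) and MCL1 are survival proteins that hold the outer mitochondrial membrane closed. BAX and BAK open it once they oligomerise, which releases cytochrome c and leads to caspase activation. BH3-only proteins such as BIM (from Bcl2l11), PUMA (Bbc3), NOXA (Pmaip1), BID and BAD bind the survival proteins or the effectors and push the balance toward death, and erythroid progenitors are known to rely on MCL1 early and on BCL-xL during maturation.

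The libraries held 18700959 to 19152281 counts each and so differed in depth by a ratio of at most 1.02. On the first principal component of all tested genes, which carried 65.3% of the variance, the 3 Vector libraries lay between -65.1 and -64.8 and the other 9 between 9.45 and 31.2. Srebf2, the mouse gene for SREBP2, was at 361 ± 8.3 CPM in Vector, 442 ± 13 in Vector+EST, 816 ± 20 in SREBP2 and 808 ± 6.7 in SREBP2+EST (SD, n = 3). The study measured the introduced sequence as human SREBP2 in transduced cells, so this row holds the endogenous gene and any reads of the introduced one that map to it, which cannot be told apart. CPM is each count scaled to a common library size, with TMM scaling between libraries. Library numbers are those that the columns of the count table carry. The chi-square per gene between the counts of 2 libraries (1 for counting error alone) was 8.17 and 10.6 between SREBP2 library 1 and libraries 3 and 5 of its own group, and 3.76 and 4.88 between it and SREBP2+EST libraries 2 and 5. SREBP2+EST library 1 stood at 6.20 and 6.31 from libraries 2 and 5 of its own group, and at 1.92 and 3.13 from SREBP2 libraries 3 and 5. The 2 libraries stood at 7.33 from each other. Each was thus closer to the other 2 libraries of the opposite SREBP2 group than to those of its own. Whether the labels of these 2 columns are exchanged was not tested, and they were kept as labelled. The members' fold changes with SREBP2 and the counts of members called are given with and without both, and for the other pathway genes the calls with SREBP2 that held without both are counted. All 10 erythroid markers were present, and their summed level was 9696 to 10122 CPM in the Vector libraries and 6313 to 7486 CPM in the other 9. Among them Gata1 was at a mean of 1769 CPM in Vector and 453 to 557 CPM in the other groups, and Tal1 at 479 and 92.4 to 103 CPM, whereas Tfrc was at 527 and 806 to 838 CPM and Alas2 at 52.1 and 138 to 176 CPM. Reads of the transgene and of any remaining endogenous transcript cannot be told apart in the Gata1 row. The mean of 6 of the 10 was below that of Vector in all other groups and that of 3 was above it. The 8 pluripotent stem cell markers, of which 4 had a row, summed to at most 0.650 CPM. Of the markers of other cells, the 8 neural genes summed to 10.7 to 12.6 CPM in Vector and 2.07 to 5.20 CPM in the other groups, with Gap43 at 0 in all groups but SREBP2. The 8 fibroblast and stroma genes summed to 19.7 to 20.8 CPM in Vector, 4.45 to 6.07 in SREBP2 and 19.0 to 36.0 in SREBP2+EST. In the Vector+EST libraries 1, 3 and 5 they summed to 5.21, 5.07 and 37.0 CPM, and Dcn was at 0 in Vector. Col1a2 made up nearly all of the Vector sum, at a mean of 19.5 CPM against 4.56 to 6.91 CPM in the other groups, while Col1a1 was at 0.034 CPM in Vector, 0.054 in SREBP2, 4.46 in Vector+EST and 9.04 in SREBP2+EST. Their part in the differences below was not tested, and in such bulk samples fewer cells of a type and less RNA per cell cannot be told apart.

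The start regions of 9 members were read from RefSeq (GRCm38.p6), as the 250 bases before each of 15 start sites, and the table of start regions used here held no window for Pmaip1. The GC box GGGCGG, searched on both strands, occurred in 10 of these 15 windows and in 7 members, against 32.7% of all 32817 windows of the same length. The windows of Bcl2, which rose, of Bbc3, which fell, and of Bax, which was not called, are shown because they held these letters alike. All are on the gene's own strand from 5′ to 3′, and the capitals mark GGGCGG or its complement CCGCCC. The Bcl2 window is chr1:106714291-106714540 (minus strand, 7 matches), the Bbc3 window chr7:16309333-16309582 (plus strand, start site 1, 5 matches) and the Bax window chr7:45466899-45467148 (minus strand, 2 matches).
Bcl2: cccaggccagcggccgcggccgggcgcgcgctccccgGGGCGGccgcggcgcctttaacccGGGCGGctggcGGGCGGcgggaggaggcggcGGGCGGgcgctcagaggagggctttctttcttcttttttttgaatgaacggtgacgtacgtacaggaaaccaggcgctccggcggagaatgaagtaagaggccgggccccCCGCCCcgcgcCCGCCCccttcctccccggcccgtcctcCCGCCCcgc
Bbc3: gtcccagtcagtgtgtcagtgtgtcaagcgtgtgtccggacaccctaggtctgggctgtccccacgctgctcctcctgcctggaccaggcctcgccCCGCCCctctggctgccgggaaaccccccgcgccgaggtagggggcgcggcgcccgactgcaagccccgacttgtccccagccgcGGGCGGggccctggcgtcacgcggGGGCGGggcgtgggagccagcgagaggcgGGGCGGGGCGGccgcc
Bax: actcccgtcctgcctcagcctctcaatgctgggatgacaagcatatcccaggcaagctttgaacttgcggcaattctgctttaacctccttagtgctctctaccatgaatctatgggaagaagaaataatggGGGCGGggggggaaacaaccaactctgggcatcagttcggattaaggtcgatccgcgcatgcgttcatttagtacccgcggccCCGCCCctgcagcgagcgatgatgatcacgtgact
The letters AGATAA or TGATAA, a form of the site that GATA factors bind, were in 1 of the 15 windows, at start site 3 of Bcl2l1, against 16.6% of all windows. That window lies wholly inside an annotated exon of another Bcl2l1 transcript. The windows of Bcl2l1 start site 2 and of Bak1 also lie wholly in annotated exons. So do 230 bases of the window of Bad start site 2 and 29 of that of Bid. The E-box CACGTG was in 2 windows, those of Bax and of Bbc3 start site 3, against 6.02% of all windows. The sterol element core TCACNCCA and the NF-E2 core TGACTCA, carried by 3.67% and 4.46% of all windows, were in none of the 15, which says only that these letters are not in these stretches.

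Of the 10 members, 9 passed the filter on low counts and Pmaip1 did not. EST in cells with the empty vector changed 8 of the 9 (edgeR quasi-likelihood test, Benjamini-Hochberg adjusted p under 0.05), with 2 higher and 6 lower. Among all 11177 genes tested 70.6% were called in this comparison, 35.2% as higher and 35.5% as lower. Active SREBP2 without EST also changed 8 of the 9, with 2 higher and 6 lower, against 71.5% of all genes (37.7% higher, 33.8% lower). With so many genes called, the number of members called is not in itself a result about them. The median log2 fold change of the 9 was -0.44 with EST and -0.40 with SREBP2, beside 0.01 and 0.03 over all genes. Bcl2 and Bcl2l11 rose, Bcl2l1, Mcl1, Bbc3, Bid, Bad and Bak1 fell, and Bax was not called, in each of these comparisons. Without library 1 of both SREBP2 groups the same 8 were called, against 72.9% of genes with EST and 70.7% with SREBP2. They share the 3 Vector libraries, so that their directions are not independent of each other.

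**Figure D1:**
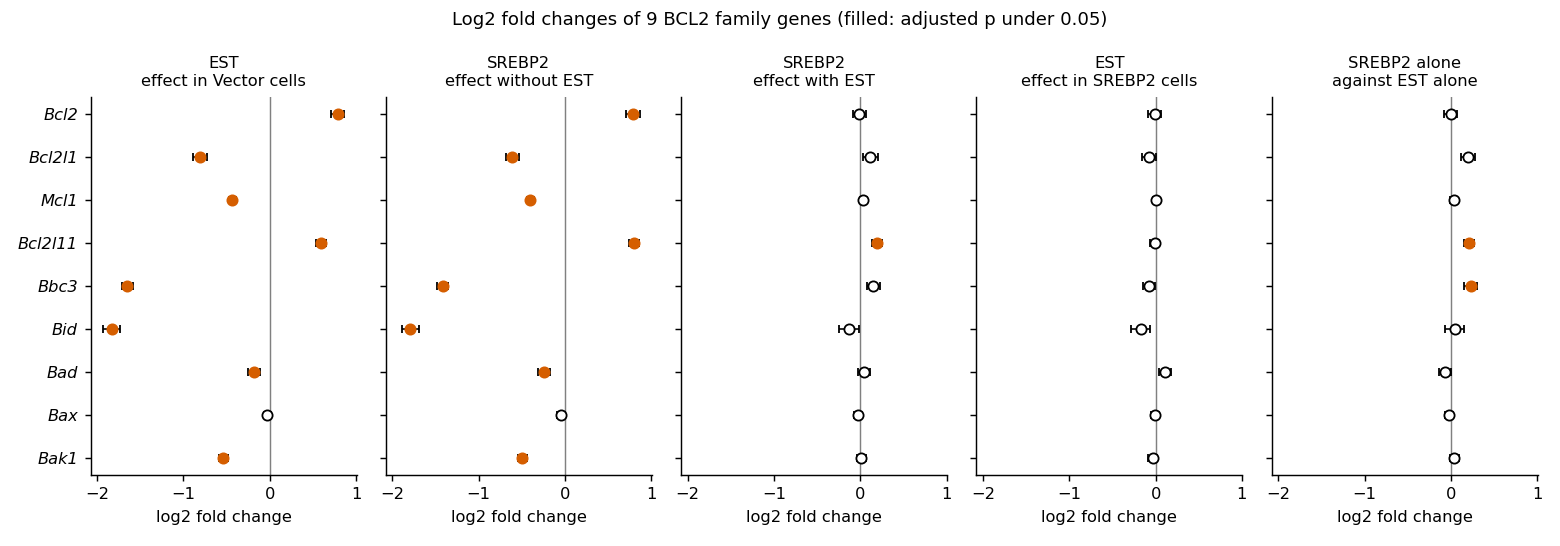
Log2 fold changes (x axis) of the 9 tested BCL2 family genes (y axis) in 5 comparisons; points are edgeR estimates, bars are 1 standard error, and filled points have an adjusted p under 0.05. Bid and Bbc3 lie farthest to the left in the panels of EST in Vector cells and SREBP2 without EST, and all points of the other 3 panels lie between -0.17 and 0.23.

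Among the survival genes, Bcl2 rose while Bcl2l1 and Mcl1 fell. Bcl2 (chr1:106538176-106714290, minus strand), the founding survival gene, stood at 11.5, 10.7 and 12.8 CPM in the Vector libraries 1, 4 and 5. It was at 21.2, 19.0 and 20.3 CPM in the SREBP2 libraries 1, 3 and 5, at 20.5, 19.9 and 20.2 in the Vector+EST libraries 1, 3 and 5, and at 20.3, 18.8 and 21.1 in the SREBP2+EST libraries 1, 2 and 5. Every library of the other groups was above every Vector library, and the other groups overlapped. The log2 fold change was 0.79 ± 0.08 (SE) with EST (adjusted p = 1.49e-07) and 0.79 ± 0.08 with SREBP2 (adjusted p = 1.48e-07), a 1.73-fold and a 1.72-fold rise. The value with SREBP2 was 0.71 ± 0.08 without library 1 of both SREBP2 groups.

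Bcl2l1 (chr2:152758732-152833803, minus strand), which codes for BCL-xL, was at 69.1, 62.8 and 62.8 CPM in Vector. It was at 36.7, 46.8 and 44.2 CPM in SREBP2, at 36.4, 34.4 and 40.6 in Vector+EST and at 41.5, 38.4 and 40.8 in SREBP2+EST. All Vector libraries were above all others, and SREBP2 library 1 was the lowest of its group. The fall was 1.75-fold with EST (log2 fold change -0.81 ± 0.08, adjusted p = 1.46e-07) and 1.53-fold with SREBP2 (-0.61 ± 0.08, adjusted p = 3.15e-06), or -0.55 ± 0.06 without library 1 of both SREBP2 groups. The gene counts do not separate the long survival isoform of Bcl2l1 from its short pro-death isoform.

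Mcl1 (chr3:95656944-95663179, plus strand), a survival gene whose protein turns over quickly, was at 328, 327 and 315 CPM in Vector. It was at 233, 247 and 253 CPM in SREBP2, at 232, 237 and 248 in Vector+EST and at 242, 244 and 249 in SREBP2+EST. The Vector libraries again lay above all the others, which overlapped. It fell 1.35-fold with EST (-0.44 ± 0.04, adjusted p = 4.71e-08) and 1.32-fold with SREBP2 (-0.40 ± 0.04, adjusted p = 1.06e-07), or -0.41 ± 0.03 without both libraries.

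**Figure D2:**
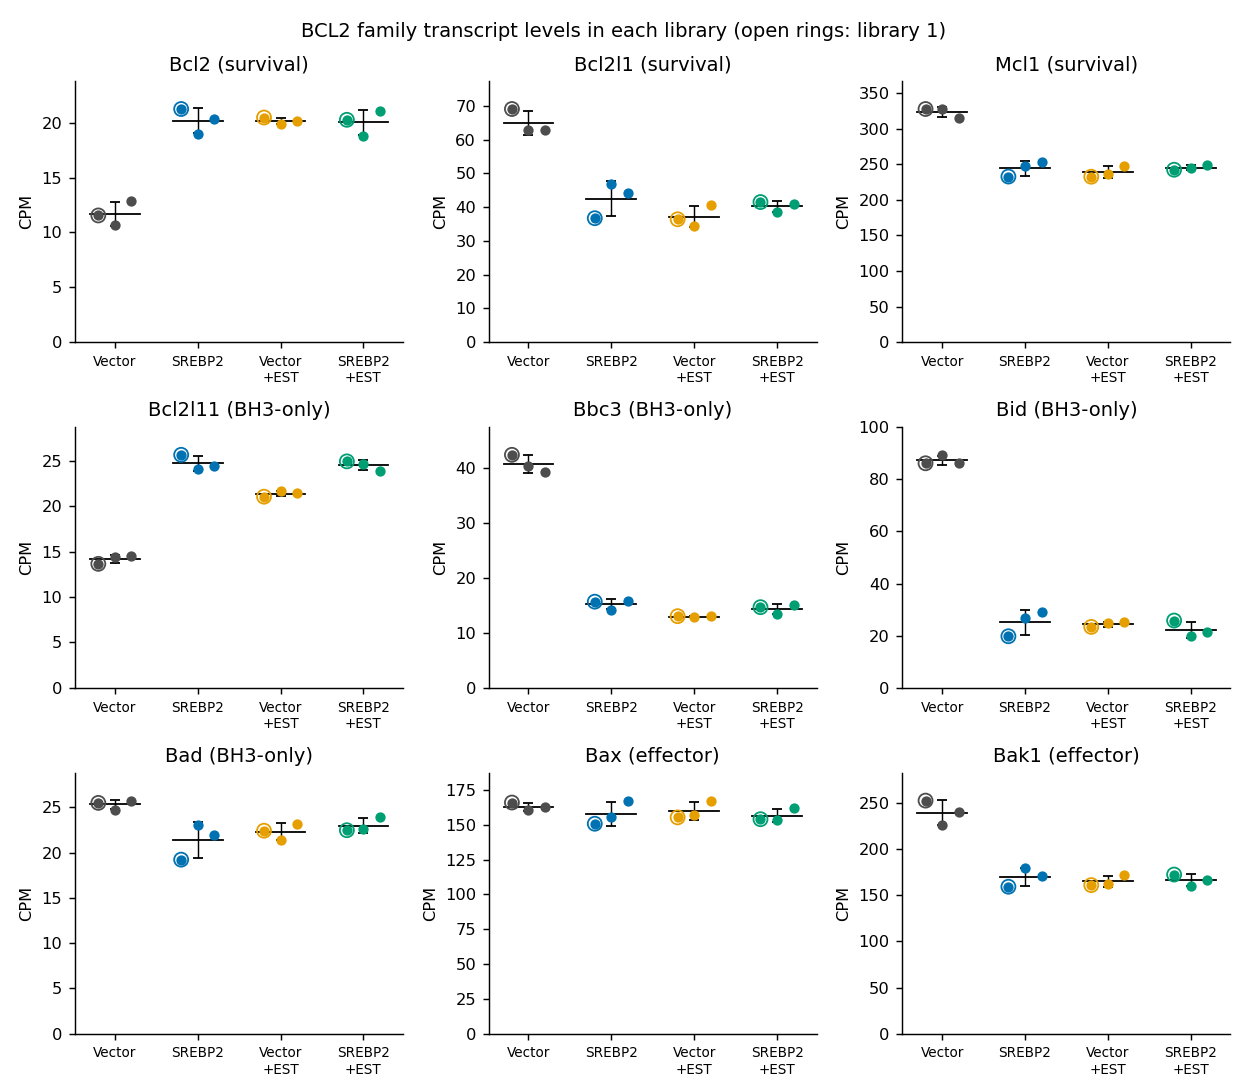
CPM (y axis, linear from 0) of the 9 tested members in each library by group (x axis); points are libraries, open rings mark library 1 of each group, and bars are the mean ± SD of 3. Vector stands apart from the other 3 groups in every panel but that of Bax, and in the Bid panel library 1 lies below the other points in SREBP2 and above them in SREBP2+EST.

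Per kilobase of transcript, Mcl1 was the most abundant of the 3 survival genes in every group and Bcl2 the least. In Vector the level was 151 ± 3.4 CPM per kilobase for Mcl1, 39.7 ± 2.2 for Bcl2l1 and 2.33 ± 0.22 for Bcl2 (SD, n = 3). The share of Bcl2 in the sum of the 3 was 1.21 ± 0.14% in Vector, 2.80 ± 0.30% in SREBP2, 2.91 ± 0.12% in Vector+EST and 2.79 ± 0.12% in SREBP2+EST. The share of Mcl1 was between 78.2% and 80.7% in all 4 groups, whereas Bcl2l1 went from 20.5 ± 0.77% in Vector to 18.0 ± 1.4%, 16.4 ± 0.83% and 17.2 ± 0.59%. The ratio of Bcl2l1 to Bcl2 per kilobase ranged from 15.0 to 18.4 in the Vector libraries and from 5.30 to 7.57 in the others, without overlap, and without library 1 of both SREBP2 groups the same 2 ranges held. With the longest in place of the median annotated transcript the mean ratios were 15.6 in Vector and 5.15 to 5.95 in the other groups.

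**Figure D3:**
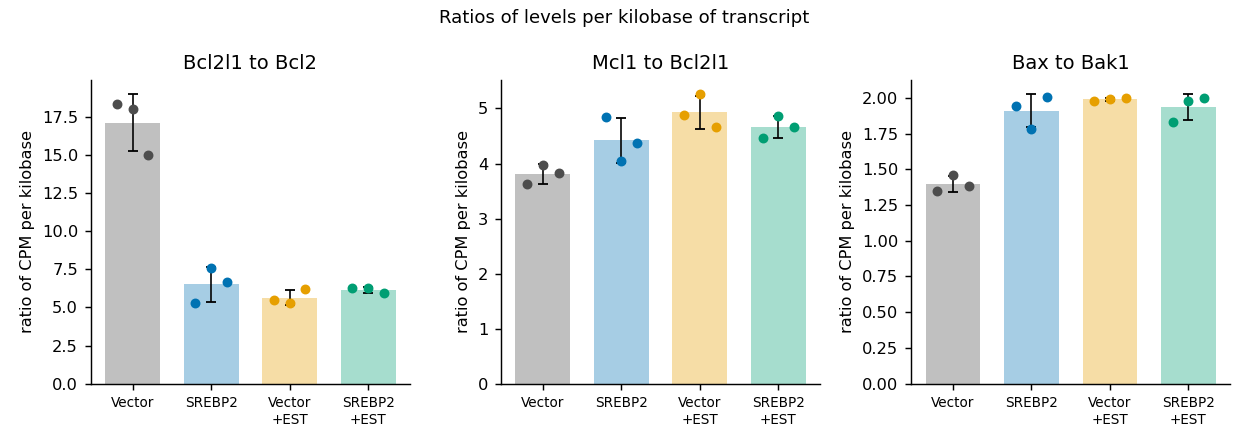
Ratios of CPM per kilobase of median transcript length (y axis, linear from 0) for Bcl2l1 to Bcl2, Mcl1 to Bcl2l1 and Bax to Bak1 by group (x axis); bars are means, error bars SD and points the 3 libraries. The Bcl2l1 to Bcl2 ratio is 17.1 in Vector and 5.65 to 6.52 in the other groups, and the Bax to Bak1 points lie between 1.35 and 1.46 in Vector and between 1.78 and 2.00 in the others.

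The BH3-only genes split, with Bcl2l11 higher and Bbc3, Bid and Bad lower. Bid (chr6:120893119-120917062, minus strand), whose protein is cut by caspase 8 to link death receptors to mitochondria, had the largest change of all members. It was at 86.1, 89.4 and 86.2 CPM in Vector and at 23.4, 24.8 and 25.3 CPM in Vector+EST. In the SREBP2 libraries 1, 3 and 5 it was at 19.8, 26.8 and 29.1 CPM, and in the SREBP2+EST libraries 1, 2 and 5 at 25.8, 19.8 and 21.4. The highest library outside Vector was thus far below the lowest Vector library, and library 1 of each SREBP2 group lay nearer to the other SREBP2 group. Bid fell 3.56-fold with EST (-1.83 ± 0.10, adjusted p = 1.42e-10) and 3.46-fold with SREBP2 (-1.79 ± 0.10, adjusted p = 1.67e-10), and 2.42% and 1.89% of the genes tested had a lower log2 fold change. Without library 1 of both SREBP2 groups the fall with SREBP2 was -1.68 ± 0.05 (log2, adjusted p = 1.29e-16).

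Bbc3 (chr7:16308398-16318334, plus strand), which codes for the p53 target PUMA, was at 42.4, 40.4 and 39.3 CPM in Vector. It was at 15.7, 14.2 and 15.7 CPM in SREBP2, at 13.0, 12.8 and 13.1 in Vector+EST and at 14.7, 13.4 and 15.1 in SREBP2+EST. The Vector+EST libraries were the 3 lowest of all 12. Bbc3 fell 3.14-fold with EST (-1.65 ± 0.06, adjusted p = 2.18e-12) and 2.68-fold with SREBP2 (-1.42 ± 0.06, adjusted p = 8.77e-12), with 3.13% and 3.12% of all genes lower. The latter value was -1.48 ± 0.07 without library 1 of both SREBP2 groups.

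Bcl2l11 (chr2:128126038-128162547, plus strand) codes for BIM, an activator that binds all the survival proteins. It was at 13.6, 14.4 and 14.5 CPM in Vector and at 21.0, 21.6 and 21.4 CPM in Vector+EST. The SREBP2 libraries were higher still at 25.6, 24.1 and 24.4 CPM, as were the SREBP2+EST libraries at 24.9, 24.7 and 23.9. The levels thus ran in order, with Vector lowest, Vector+EST between and both SREBP2 groups on top without overlap. The rise was 1.51-fold with EST (0.59 ± 0.06, adjusted p = 1.80e-07) and 1.74-fold with SREBP2 (0.80 ± 0.06, adjusted p = 3.82e-09), and without library 1 of both SREBP2 groups the latter was 0.73 ± 0.07. Acoxl, which overlaps the start of Bcl2l11 on the same strand, was at 0.379 CPM on average.

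Bad (chr19:6941861-6951905, plus strand), a sensitizer held in check by phosphorylation, changed least of the members called. It was at 25.5, 24.7 and 25.8 CPM in Vector, at 19.2, 23.0 and 21.9 in SREBP2, at 22.4, 21.4 and 23.2 in Vector+EST and at 22.5, 22.6 and 23.9 in SREBP2+EST. The Vector libraries were the 3 highest, but the lowest of them, at 24.7, lay close to the next library at 23.9. The log2 fold change was -0.18 ± 0.07 with EST (adjusted p = 0.0245) and -0.24 ± 0.07 with SREBP2 (adjusted p = 0.00427), the latter -0.21 ± 0.06 without library 1 of both SREBP2 groups. The EST call was lost without Vector library 1 (adjusted p = 0.0590), Vector+EST library 1 (0.0520) or Vector+EST library 3 (0.0957). Bad overlaps the start of Gpr137 (26.6 CPM) on the opposite strand, and since the use of strand in counting is not stated, reads from the shared stretch cannot be told apart.

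Pmaip1 (chr18:66458604-66465558), which codes for NOXA, was at or near the floor of detection. Its counts were 2, 2 and 1 in Vector, 2, 4 and 3 in SREBP2, 0, 2 and 0 in Vector+EST and 3, 2 and 2 in SREBP2+EST. A count of 0 allows up to 3 counts, which is 0.153 to 0.163 CPM in these libraries, so that no difference was detectable at this depth.

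The effectors differed from each other. Bax (chr7:45461695-45466903, minus strand) was at 166, 160 and 162 CPM in Vector, at 151, 155 and 167 in SREBP2, at 155, 157 and 167 in Vector+EST and at 154, 154 and 162 in SREBP2+EST, and all groups overlapped. Its log2 fold change was -0.03 with EST (95% interval -0.12 to 0.07, adjusted p = 0.602) and -0.05 with SREBP2 (-0.14 to 0.05, adjusted p = 0.367). Under scaling by library totals alone the value with SREBP2 was -0.10 and passed the test (adjusted p = 0.0355). That scaling shifted the median log2 fold change over all genes by -0.057 in this comparison. Without library 1 of both SREBP2 groups the Bax value was -0.06 ± 0.04 and not called.

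Bak1 (chr17:27019812-27028627, minus strand) was at 253, 226 and 241 CPM in Vector, at 159, 179 and 171 in SREBP2, at 161, 162 and 172 in Vector+EST and at 173, 160 and 167 in SREBP2+EST. The Vector libraries were above all others, and Bak1 fell 1.45-fold with EST (-0.54 ± 0.05, adjusted p = 9.85e-08) and 1.41-fold with SREBP2 (-0.50 ± 0.05, adjusted p = 2.44e-07), the latter -0.49 ± 0.04 without library 1 of both SREBP2 groups. Per kilobase Bax exceeded Bak1 in every library, by a ratio of 1.35 to 1.46 in Vector and 1.78 to 2.00 in the other groups. Ggnbp1, which overlaps Bak1 on the opposite strand, was at 1.53 CPM.

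SREBP2 alone and EST alone were set against each other directly, a difference that takes in no Vector mean, although all 12 libraries set the spread. The call fell on 2 of 9 members, both higher in SREBP2, against 23.4% of all genes tested (14.4% higher, 8.96% lower). Bcl2l11 was 1.16-fold higher with SREBP2 than with EST (0.21 ± 0.06, adjusted p = 0.0133), and Bbc3 was 1.17-fold higher (0.23 ± 0.07, adjusted p = 0.0303). The Bbc3 call was lost by leaving out SREBP2 library 1 or 5 or any of the 3 Vector+EST libraries (adjusted p from 0.0651 to 0.0975), and that of Bcl2l11 by leaving out Vector+EST library 1 (0.0510). Fitted on only the libraries compared, neither was called (0.0513 for Bcl2l11, 0.0745 for Bbc3), nor with DESeq2 (0.0682 and 0.0953). For Bcl2 the difference was 0.00 (95% interval -0.16 to 0.15), for Mcl1 0.03 (-0.05 to 0.11), for Bax -0.02 (-0.11 to 0.08) and for Bak1 0.04 (-0.07 to 0.15), all on the log2 scale.

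For 2 further members this comparison turned on library 1 of the SREBP2 groups. Bcl2l1 was higher in SREBP2 than in Vector+EST by 0.20 ± 0.08 with all libraries (log2, adjusted p = 0.101). Without both libraries the difference was 0.29 and passed the test (adjusted p = 0.00183), as it did without SREBP2 library 1 alone (0.00393) or without Vector+EST library 5 alone (0.0432). Bid went from 0.04 ± 0.11 (adjusted p = 0.830) to 0.19 ± 0.06 (adjusted p = 0.0227). Without both libraries 3 of 9 members were called, Bcl2l1, Bcl2l11 and Bid, against 34.4% of genes, and Bbc3 was not (0.20, adjusted p = 0.0640).

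Among cells given EST, active SREBP2 changed 1 of 9 members, against 21.9% of all genes (14% higher, 7.94% lower). Bcl2l11 was 1.15-fold higher in SREBP2+EST than in Vector+EST (0.20 ± 0.06, adjusted p = 0.0195). This call did not hold with DESeq2 (0.111), nor without Vector+EST library 1 (0.0712), Vector+EST library 5 (0.0501), SREBP2+EST library 1 (0.0514) or SREBP2+EST library 2 (0.0641). Bbc3 was higher in all 3 SREBP2+EST libraries than in any Vector+EST library, by 0.15 ± 0.07 (adjusted p = 0.160). Bid differed by -0.13 ± 0.11 (adjusted p = 0.458), and by -0.25 ± 0.07 without library 1 of both SREBP2 groups (adjusted p = 0.00602), where 2 members, Bcl2l11 and Bid, were called against 30.7% of genes.

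In cells that already expressed active SREBP2, EST called none of the 9 members. The same held for all genes, since edgeR called 0 of 11177 (0%) and DESeq2 called 12, with 506 genes at an unadjusted p under 0.05. The 9 log2 fold changes ran from -0.17 for Bid to 0.10 for Bad, and the widest 95% interval was that of Bid (-0.42 to 0.07). Without library 1 of both SREBP2 groups 1567 of 11292 genes were called (13.9%), and Bid was the only member among them, lower in SREBP2+EST by 0.44 ± 0.07 on the log2 scale (adjusted p = 0.00032). The Bid levels behind this value were 26.8 and 29.1 CPM in SREBP2 libraries 3 and 5 and 19.8 and 21.4 CPM in SREBP2+EST libraries 2 and 5, whereas the libraries left out stood at 19.8 and 25.8 CPM.

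The effect of EST therefore differed between Vector and SREBP2 cells for 8 of the 9 members by the interaction term, 6 with a value above and 2 with a value below that in Vector cells, against 59% of all genes (29.8% and 29.2%). The difference was largest for Bid (1.66 ± 0.15, adjusted p = 1.54e-07) and Bbc3 (1.57 ± 0.10, adjusted p = 1.30e-09). Without library 1 of both SREBP2 groups the same number of members was called, against 57.1% of genes, and Bid was at 1.43 ± 0.09. For Bax the difference was 0.02 (95% interval -0.12 to 0.15). The interaction term takes in the same Vector libraries as the effects of EST and of SREBP2 alone, so it is not independent of them.

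The other genes of the pathway were read from 6 lists, of which 48 of 62 genes were tested. Bcl2a1a, Bcl2a1b, Bcl2a1d, Bcl2l10 and Bik had no row in the table, and Bok, Hrk, Bmf, Bcl2l14, Fas, Fasl, Tnfrsf1a, Perp and Gdf15 were below the filter. EST in Vector cells raised 16 of the 48 and lowered 17, and SREBP2 without EST raised 18 and lowered 16, with medians of 0.03 and 0.00 on the log2 scale. The medians over all genes were 0.01 and 0.03. These are 33 and 34 of 48 genes called, beside 70.6% and 71.5% of all genes tested, so the counts are no result about the lists. Of the 34 calls with SREBP2, 32 held in the same direction without library 1 of both SREBP2 groups, all but those of Mdm4 and Phlda3, and no log2 fold change with SREBP2 moved by more than 0.15.

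Of the 6 other BCL2 family genes tested, 2 rose and 2 fell in each of these comparisons. Bcl2l13, a mitochondrial outer membrane protein with a part in mitophagy, went from 171 ± 3.5 CPM in Vector to 406 ± 4.2 in Vector+EST and 387 ± 12 in SREBP2 (log2 fold changes 1.25 ± 0.04 and 1.18 ± 0.04). Bnip3 rose by 0.70 ± 0.11 and 0.56 ± 0.11, and its relative Bnip3l, needed for mitochondrial clearance in reticulocytes, fell by 0.47 and 0.30. Bcl2l12 fell by 0.62 and 0.60. Bcl2l2, which codes for the survival protein BCL-w, was not called with EST or with SREBP2 alone, at 58.8 ± 11 CPM in Vector, 56.5 ± 5.9 in Vector+EST and 68.3 ± 3.8 in SREBP2. In SREBP2+EST it was at 64.8, 68.4 and 98.2 CPM and was higher than in Vector+EST by 0.45 ± 0.14 (adjusted p = 0.0317). Without SREBP2+EST library 5, the highest, this was 0.24 (adjusted p = 0.197), and the call was also lost without Vector+EST library 1 (0.110) or 3 (0.123) and with DESeq2 (0.0852).

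All but 1 of the 12 apoptosome and caspase genes were called with EST, 5 higher and 6 lower, and the counts were the same with SREBP2, beside 70.6% and 71.5% of all genes called. Apaf1, the scaffold of the apoptosome, rose from 50.3 ± 2.8 CPM in Vector to 114 ± 3.1 in Vector+EST and 106 ± 12 in SREBP2. The executioner Casp6 rose from 12.8 ± 0.83 CPM to 47.8 ± 2.0 and 41.4 ± 0.25. The initiator Casp9 rose more with SREBP2 than with EST. It was at 35.7 ± 0.62 CPM in Vector, 56.3 ± 0.30 in Vector+EST and 86.8 ± 1.2 in SREBP2, with a direct difference of 0.63 ± 0.04 (adjusted p = 3.95e-09), or 0.61 ± 0.04 without library 1 of both SREBP2 groups. Endog, a mitochondrial nuclease, fell from 15.7 ± 1.1 to 8.82 ± 0.30 and 7.93 ± 0.29 CPM.

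Among the 5 caspase inhibitors 1 rose and 1 fell in each comparison, beside 70.6% and 71.5% of all genes called. The gene that rose was Birc2 with EST (0.22 ± 0.06) and Birc3 with SREBP2 (0.83 ± 0.07), and Birc6 fell by 0.23 and 0.21. Birc3, which codes for cIAP2, was at 17.8 ± 0.99 CPM in Vector and 16.8 ± 1.3 in Vector+EST, and at 31.6 ± 1.9 in SREBP2 and 29.4 ± 0.70 in SREBP2+EST. It was higher in SREBP2 than in Vector+EST by 0.92 ± 0.07 (adjusted p = 4.46e-08), or 0.90 ± 0.08 without library 1 of both SREBP2 groups. Of the 5 death receptor genes tested, 2 fell with EST, Tnfrsf10b by 0.43 and Ripk1 by 0.27, and with SREBP2 Tradd and Ripk1 fell while Cflar, which codes for the caspase 8 inhibitor FLIP, rose by 0.37 ± 0.10.

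Of 14 tested genes of the p53 list, 7 rose and 4 fell with EST, and 7 rose and 3 fell with SREBP2, again near the 70.6% and 71.5% of all genes. Trp53 itself was at 334 ± 12 CPM in Vector, 322 ± 16 in Vector+EST and 343 ± 31 in SREBP2 and was not called. Without library 1 of both SREBP2 groups it was lower with EST (-0.09 ± 0.04, adjusted p = 0.0327). In that fit the EST values of the listed genes all moved by nearly the same amount, that of Trp53 by -0.037. A pair of p53 targets with roles in cell cycle arrest went opposite ways, since Btg2 rose from 29.8 ± 2.1 CPM in Vector to 298 ± 13 and 336 ± 14, while Cdkn1a fell from 235 ± 5.9 to 137 ± 5.9 and 159 ± 21. Trp53inp1 was at 20.1 ± 1.3, 22.9 ± 1.5 and 41.4 ± 0.87 CPM and was higher in SREBP2 than in Vector+EST by 0.86 ± 0.06 (adjusted p = 2.5e-08), and by 0.86 ± 0.07 without library 1 of both SREBP2 groups. Aen, an exonuclease induced by p53, fell by 0.63 and 0.55, as Bbc3 did on a larger scale.

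Of the 6 genes of MCL1 turnover and mitochondrial partners, Usp9x, the deubiquitinase that stabilises MCL1, rose by 0.61 ± 0.05 with EST and by 0.60 ± 0.05 with SREBP2. Vdac2, a channel that holds BAK at the mitochondrial membrane, fell by 0.55 and 0.56, which was close to the fall of Bak1 itself. Fbxw7 was not called with EST and rose by 0.22 ± 0.06 with SREBP2, and Huwe1, a ubiquitin ligase of MCL1, was not called in either comparison with all libraries, but fell by 0.10 with SREBP2 (adjusted p = 0.0206) without library 1 of both SREBP2 groups.

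**Figure D4:**
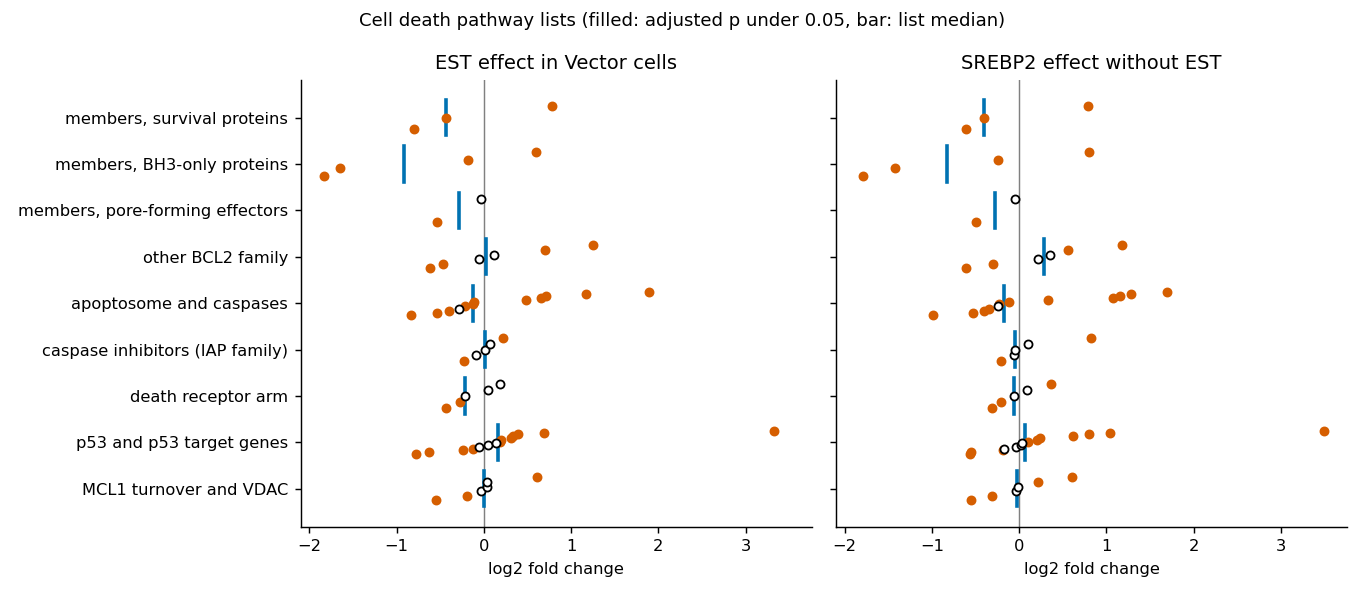
Log2 fold changes (x axis) of each tested gene by list (y axis) for EST in Vector cells and SREBP2 without EST; filled points have an adjusted p under 0.05 and blue bars are list medians. The 4 tested BH3-only genes have medians of -0.92 and -0.83, and Btg2 is the point farthest to the right in the p53 list.

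The genes whose pattern over the 12 libraries was most like that of a member were sought among 8553 genes, by the root mean square difference of gene-centred log2 CPM. For Mcl1 these were Irf3 (0.03), Lgals1 (0.04) and Maea (0.04), and for Bcl2l1 Irs2, Sfr1 and Ifi30 (0.06 each). For Bcl2l11 they were Arl4a (0.04), Abi1 (0.05) and Mapk6 (0.05), and for Bbc3 Fut8, Cd55 and Klf9 (0.10 each). Klf9, for example, was at 42.8 CPM in Vector, 14.8 in Vector+EST and 18.2 in SREBP2, beside 40.7, 13.0 and 15.2 CPM for Bbc3.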

How the data were processed

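Poly(A) RNA of 12 libraries (3 per group) was sequenced as single-end 50 base reads on a BGIseq500. The authors deposited estimated counts per gene, and the submitters' notes name HISAT2 2.0.4, Bowtie2 2.2.5, RSEM 1.2.12, DESeq2 1.4.5 and GRCm38.p6 with no roles. Of the deposited counts 66.5% were exactly whole numbers, and the others were rounded to whole numbers here before the fit. A second deposited table holds the authors' own comparisons (fold changes and p-values) and was not used. Columns were matched to groups by header, and header numbers are not the replicate numbers of the sample titles. Of 17210 genes, edgeR's filterByExpr kept 11177. The edgeR 4.0.16 quasi-likelihood F-test (R 4.3.3) was fitted to all 12 libraries with TMM scaling and 1 mean per group, and p-values were adjusted over all genes by the method of Benjamini and Hochberg. Standard errors were taken from the fold change and the F statistic. The fit was tested on simulated data in which a small set of genes changed in Vector+EST only. With far more genes called here, that test does not cover the scaling under such broad changes. Levels per kilobase used median GENCODE M21 transcript lengths, which cannot account for isoforms. Alternatives were DESeq2 1.42.0, RLE scaling, library totals, leaving out single libraries or library 1 of both SREBP2 groups, fitting the compared groups on their own, a replicate block, no low-count filter or a minimum of 10 counts throughout, and the longest transcript. All 10 members were named, and of each pathway list up to 3 called rises and 3 called falls per comparison, with further genes of the lists given for context. Some genes of the lists are not reported here. The members, lists and alternatives were chosen with earlier results of these data known. Counting floors of 3 counts cover counting error only. GENCODE and RefSeq positions are on GRCm38.p6.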

Additional observations from a re-analysis of the deposited data

Results flagged for a closer look

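The effect of EST on 8 members differed between SREBP2 cells and Vector cells by the interaction term of the edgeR fit (effect in SREBP2 cells minus effect in Vector cells, log2). The difference was -0.80 ± 0.11 for Bcl2 (adjusted p = 9.27e-06), 0.73 ± 0.11 for Bcl2l1 (4.59e-05), 0.44 ± 0.06 for Mcl1 (4.59e-06) and -0.60 ± 0.08 for Bcl2l11 (9.35e-06). It was 1.57 ± 0.10 for Bbc3 (1.3e-09), 1.66 ± 0.15 for Bid (1.54e-07), 0.29 ± 0.10 for Bad (0.018) and 0.51 ± 0.07 for Bak1 (1.89e-05). In each of the 8 the groups Vector and Vector+EST did not overlap, whereas SREBP2 and SREBP2+EST did. The share of all genes with this pattern was not counted, so it is no result about the members. Of all genes tested, EST called 70.6% in Vector cells and 0% in SREBP2 cells. The SREBP2 group that serves as baseline in the second effect was already away from Vector in the same direction. The interaction was called for 59% of all genes tested.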

How the results depend on the processing

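All 8 calls with SREBP2 alone held in all 160 values under the alternatives, and 156 of 160 did with EST in Vector cells, the 4 lost being those of Bad. Of the interaction calls 151 of 152 held. None of 13 same-number pairs of libraries correlated above 0.1 (r from -0.17 to 0.07). With 3 libraries per group this cannot settle whether the header numbers pair the libraries. With these numbers as a replicate block, Bad lost its EST call (-0.21, adjusted p = 0.0542) and its interaction call (0.34, 0.0511), and no member was called for SREBP2 with EST or for SREBP2 against EST (0 each). The cause of the changes below was not tested. For SREBP2 with EST, 0 members were called with DESeq2, with library totals and with no low-count filter, 2 without library 1 of both SREBP2 groups, and 0 to 1 when 1 library was left out. For SREBP2 against EST, 0 were called with DESeq2 and with only the libraries compared, 1 with library totals and 1 with no filter, and 0 to 2 when 1 library was left out. For EST in SREBP2 cells 1 was called without library 1 of both SREBP2 groups. Over these settings the calls among all genes ran from 1208 to 3472 for SREBP2 with EST and from 0 to 1567 for EST in SREBP2 cells.

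Scaling by library totals shifted the median log2 fold change over all genes by -0.045 for SREBP2 with EST. For SREBP2 against EST the shift was -0.043. Values that changed sign were not called by any of these fits (log2). With the replicate block they were, for SREBP2 with EST Bcl2 0.0069, for EST in SREBP2 cells Bcl2 0.0089, Bak1 0.011. Without library 1 of both SREBP2 groups they were, for EST in SREBP2 cells Bcl2 0.024, Mcl1 -0.019, Bcl2l11 0.0050, for SREBP2 against EST Bad 0.0057, Bax 0.0095, for SREBP2 with EST Bak1 -0.018. With the minimum of 10 counts they were, for SREBP2 against EST Bcl2 0.0048. With library totals they were, for SREBP2 with EST Mcl1 -0.0090, Bad -0.0030, Bak1 -0.034, for SREBP2 against EST Mcl1 -0.012, Bid -0.00096, Bak1 -0.00077. With DESeq2 they were, for EST in SREBP2 cells Mcl1 -0.0028, for SREBP2 with EST Bak1 -0.0064. With RLE scaling they were, for EST in SREBP2 cells Mcl1 -0.0029, for SREBP2 with EST Bak1 -0.0064. With 1 library left out, sign changes lay in the ranges SREBP2 with EST -0.047 to 0.033 for Bcl2, -0.056 to 0.0026 for Bax, -0.017 to 0.040 for Bak1; EST in SREBP2 cells -0.051 to 0.030 for Bcl2, -0.029 to 0.031 for Mcl1, -0.030 to 0.016 for Bcl2l11, -0.043 to 0.034 for Bax, -0.076 to 0.0081 for Bak1; SREBP2 against EST -0.041 to 0.041 for Bcl2, -0.072 to 0.19 for Bid, -0.12 to 0.0089 for Bad, -0.064 to 0.017 for Bax; the interaction -0.016 to 0.065 for Bax.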
